A study of Mus musculus with 6 samples.

Results

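The 74 genes described here encode proteins of the centrosome and of the primary cilium. They were chosen by name from 55413 gene records of a mouse muscle cell line: every record named Cep, Ift, Bbs or Nphp with a number, the tectonics Tctn1, Tctn2 and Tctn3, and Pcm1, Pcnt, Akap9, Cdk5rap2 and Ninl. The rule itself reads names alone. The name pattern also took in the non-coding records Cep112it, Cep112os1 and Cep83os.

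RNA was sequenced from C2C12 cells, a line of mouse myoblasts that fuse into myotubes when serum is lowered. The cells had grown in 10% fetal bovine serum and were collected on day 4 of differentiation in 2% horse serum. There are 3 libraries of genotype WT and 3 labelled FHL3-KO, a knockout of the LIM-domain protein FHL3, and both groups had the same differentiation. The labels name no clone and no separate cultures, so an effect of the genotype and one of a clone cannot be told apart, and p-values rest on a spread between libraries that may be technical. The series is about FHL3 in fast glycolytic muscle fibres, and the comparison asks how gene expression differs between the genotypes in differentiated cells.

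The values are FPKM, a level per length of transcript and per size of library, and they summed to between 424987 and 494176 per library. Fhl3 itself stood at 27.8, 30.03 and 33.7 FPKM in WT cells and at 57.2, 53.5 and 58.9 FPKM in the FHL3-KO-labelled libraries. The RNA of the targeted gene was thus higher and not lower, so these values do not bear out the label. RNA levels cannot show whether the protein was lost, and the label could not be checked. "Rose" and "fell" below compare the FHL3-KO-labelled libraries with WT, and that caution applies to every direction given. Liver transcripts were present in WT replicate 1: the 4 genes Alb, Apoa1, Ttr and Serpina1a summed to 74.7 FPKM there, and they were listed at 0 in every library labelled FHL3-KO. Myotube markers were abundant in all libraries, at 3355 to 3667 summed FPKM in WT cells and 8939 to 9369 FPKM in the other group.

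A centrosome is a pair of centrioles in a shell of pericentriolar material that anchors microtubules. In a resting cell the older centriole docks at the membrane and templates a primary cilium, which is built and serviced by intraflagellar transport trains and receives Hedgehog signals. When myoblasts differentiate they lose the centrosome as the main microtubule-organising centre, and proteins such as Pcm1, Pcnt and Akap9 move to the nuclear envelope.

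Genes of the centrosome and cilium were lower more often than higher in the FHL3-KO-labelled libraries. Of the 74 genes, 67 reached a mean of 1 FPKM in at least 1 group and were tested with limma, and 26 fell, 2 rose and 39 did not pass an adjusted p of 0.05. Over all 12528 genes tested, 40.8% passed in either direction, 21.2% fell and 19.7% rose. The share of centrosome and cilium genes called in either direction, 41.8%, was thus near the background, while the share that fell was 38.8%. The median log2 change was -0.29, against -0.005 over all genes tested, and 55 of the 67 changes were negative. Log2 changes were computed from log2(FPKM + 1), so those of weakly expressed genes are understated.

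The counts depended on single libraries. The number that fell was 16 without WT replicate 1, where 15.7% of all genes fell, and 15 without WT replicate 2, where 13.3% did. It was 12 without FHL3-KO-labelled replicate 1 (14.0% of all genes) and 17 without FHL3-KO-labelled replicate 3 (16.3%). Of the centrosome and cilium genes tested, these are 23.9%, 22.1%, 17.9% and 25.4%, in the same order. The median stayed between -0.32 and -0.24. With no filter on low values 27681 genes were tested, and 15 of the 26 falls, Cep170, Pcm1 and Cdk5rap2 among them, were not called. In that fit 17.8% of the centrosome and cilium genes and 7.75% of all genes fell. With libraries scaled to the same sum 30 of the 67 fell, at a background of 23.6%, and 0 rose. The number that rose was 1 without any of the 3 WT replicates or without replicate 2 or 3 labelled FHL3-KO, and 0 without FHL3-KO-labelled replicate 1. Calls over all genes also dropped, to 3272 without WT replicate 2. At an adjusted p of 0.05, the fall of 9 genes passed in each of 18 refits in which they were tested: Ift74, Ift80, Ift81, Cep57, Cep135, Cep162, Cep164, Cep290 and Bbs12. At a threshold of 0.01 Cep162 and Cep164 did not pass (0.011 and 0.0129). With all libraries, 41 of the 67 genes had groups without overlap, 39 of them lower and 2 higher, where 53.8% of all tested genes lay apart, 26.9% in each direction. An exact two-sided permutation test of 3 libraries against 3 cannot give a p below 0.1.

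**Figure D1:**
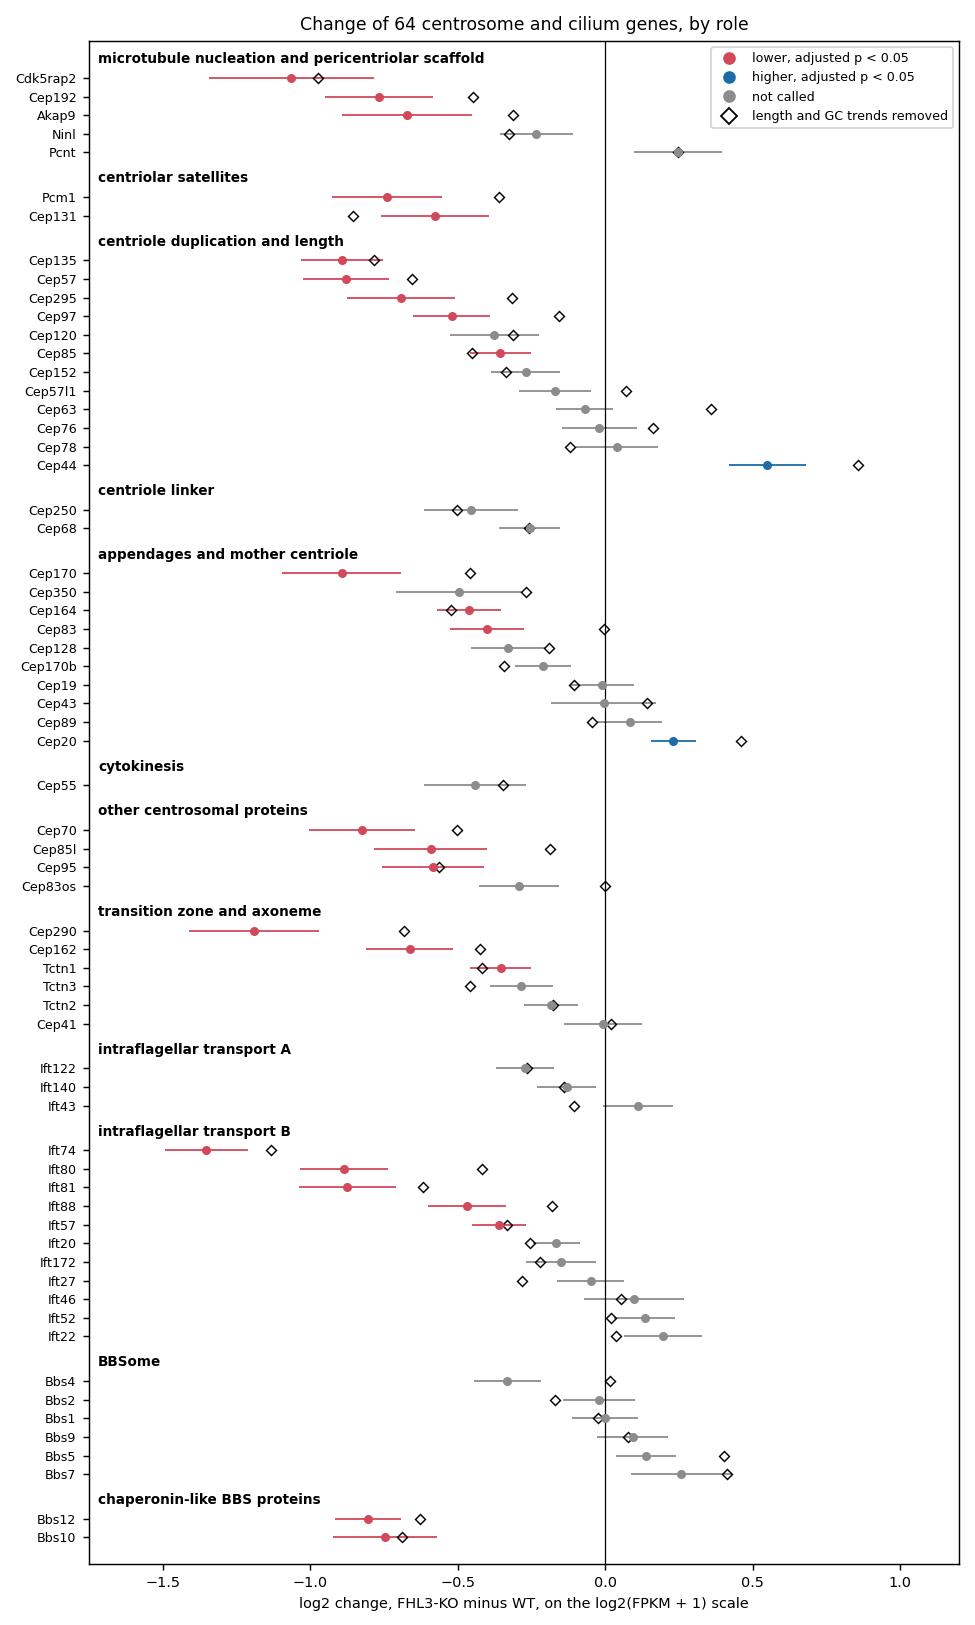
Log2 change (FHL3-KO minus WT, log2(FPKM + 1) scale) of 64 of the tested genes, ordered by role, with bars of 1 standard error from limma. Red points fell, blue points rose and grey points were not called; open diamonds give the change after each library's trends with exon length and GC content were removed. Ift74, Cep290 and Cdk5rap2 lie furthest to the left, and Cep44 and Cep20 are the only blue points.

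The libraries themselves were ordered within their groups. Relative to the WT mean, the median of the 67 genes was 0.13, -0.02 and -0.11 on the log2 scale in WT replicates 1, 2 and 3, and -0.33, -0.21 and -0.32 in the replicates labelled FHL3-KO. The median of all tested genes lay between -0.03 and 0.03 in every library. Of the 26 genes that fell, WT replicate 1 was the highest WT library for 22, and FHL3-KO-labelled replicate 2 was the highest of its group for 19. Levels of genes with a low GC content also differed between these libraries. In tested genes with a GC content of at most 44.0%, the median deviation from the 6-library mean was 0.32, 0.17 and 0.07 in WT and -0.21, -0.05 and -0.32 in the FHL3-KO-labelled libraries. WT replicate 1 was thus the highest and FHL3-KO-labelled replicate 2 the nearest to WT in both measures.

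**Figure D2:**
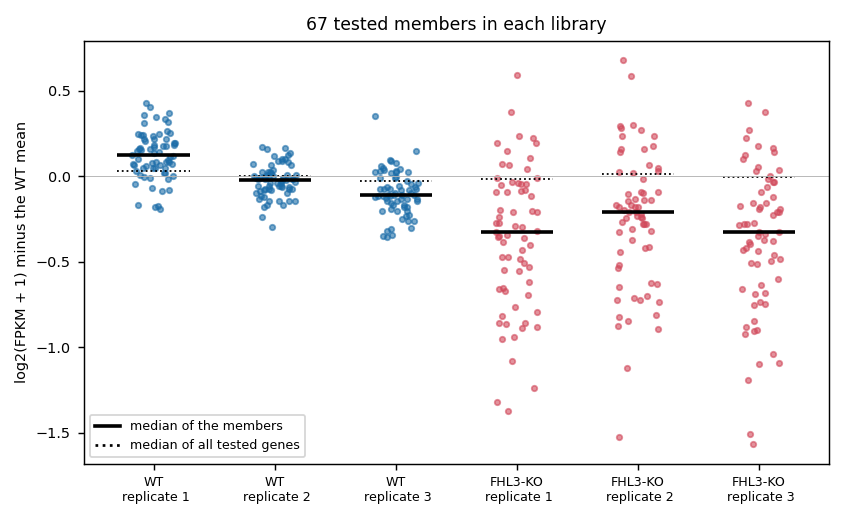
Deviation of each of the 67 tested genes from its WT mean (log2(FPKM + 1) scale) in each of the 6 libraries; solid lines are the medians of these genes and dotted lines the medians of all tested genes. The 3 libraries labelled FHL3-KO have medians from -0.33 to -0.21, all below those of the WT libraries.

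GC content and exon length went along with the changes across all genes, and the centrosome and cilium genes are long and poor in GC. Their median GC content was 46.7% and their median exon length 5952 bases, against 49.8% and 4114 bases over all tested genes with an annotation. Across genes, the Spearman correlation of the log2 change with GC content was 0.35 over the 67 genes and 0.38 over 12495 genes, and with exon length -0.34 and -0.22. Genes share libraries and are not independent replicates, so these are descriptions. Among other genes, 45.8% of those with a GC content of at most 44.0% fell, and 9.31% of those above 55.5%. In the same classes, 13 of 22 and 3 of 7 of the centrosome and cilium genes fell. Among genes longer than 4913 bases with a GC content of at most 47.9%, 41.1% of 2581 other genes fell, and 13 of 23 centrosome and cilium genes (56.5%). Outside that class 15.9% of 9847 other genes fell, and 13 of 44 (29.5%) of the centrosome and cilium genes, with none rising.

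After each library's trends with exon length and GC content were removed, 26 of the 67 genes fell and 4 rose, at a median of -0.26. The background was then 41.7% called, 22.6% lower and 19.1% higher, with a median of -0.03, and the correlation of the change with GC content over the 67 genes was -0.08. The count of falls was the same, but the genes were in part others. Of the original 26, 19 still fell. The 7 that were no longer called were Pcm1, Akap9, Cep83, Cep85l, Cep97, Cep295 and Ift88. There were also 7 new falls, among them Cep68, Cep170b, Cep250, Ift20, Ift122 and Tctn3. Bbs5 and Bbs7 joined Cep20 and Cep44 among the genes that rose.

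**Figure D3:**
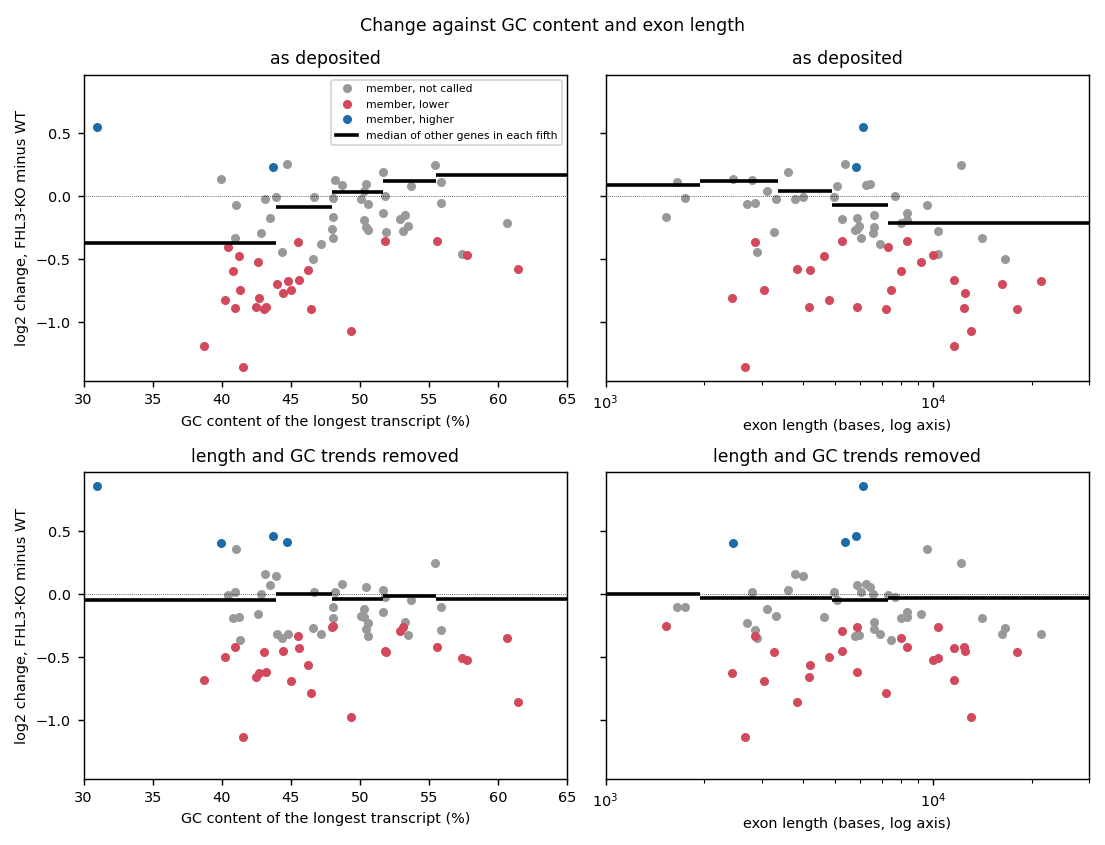
Log2 change of the 67 genes (points, coloured by call) against the GC content of the longest transcript (left, %) and exon length (right, bases, log axis), as deposited (top) and after both trends were removed (bottom). Black lines are the medians of all other tested genes in 5 classes of equal size. The lines slope in the upper panels, from -0.37 in the lowest to 0.17 in the highest class of GC content, and are nearly level in the lower panels, where 52 of the 67 points lie below 0.

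Among the proteins that nucleate and anchor microtubules at the centrosome, Cdk5rap2, which recruits gamma-tubulin complexes, changed the most. It stood at 9.96, 11.2 and 10.8 FPKM in WT cells and at 3.66, 3.04 and 8.13 FPKM in the FHL3-KO-labelled libraries. The groups did not overlap, but FHL3-KO-labelled replicate 3 was far nearer to WT than the others were. Its mean was 10.6 ± 0.62 against 4.94 ± 2.8 FPKM (SD, n = 3 in each group, as for every ± below), a log2 change of -1.07 (SE 0.28, limma adjusted p = 0.0197). The call ended without WT replicate 2 (adjusted p = 0.0638) and without FHL3-KO-labelled replicate 1 (0.0709). With the length trend alone removed the adjusted p was 0.0763, and with both trends removed 0.0357. A processed pseudogene, Ywhaq-ps3, overlaps 365 bases of its exons on the same strand, at 31.1 and 17.7 FPKM in the WT and other libraries, so the Cdk5rap2 value is uncertain to that extent.

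Cep192, the scaffold that recruits pericentriolar material, fell from 3.51, 3.16 and 2.11 FPKM in WT to 1.02, 1.71 and 1.16 FPKM (log2 change -0.77, adjusted p = 0.0137; -0.45 with both trends removed, 0.0202). All 3 libraries labelled FHL3-KO lay below WT. Its call ended without WT replicate 2 (0.0558) and without FHL3-KO-labelled replicate 1 (0.0515). Akap9, a very large scaffold of centrosome and Golgi, was at 5.37, 3.92 and 3.26 FPKM in WT cells and at 1.76, 3.31 and 1.77 FPKM. Its groups overlapped, since FHL3-KO-labelled replicate 2 exceeded WT replicate 3. The fall (log2 change -0.67, adjusted p = 0.0435) was no longer called after both trends were removed (-0.31, 0.0794), nor without WT replicate 1 (0.126) or 2 (0.0983), nor without replicate 1 (0.134) or 3 (0.122) labelled FHL3-KO. On the opposite strand Cyp51, at 52.7 and 67.7 FPKM, overlaps 166 bases of its exons.

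Pericentrin was not called. Pcnt, which organises the pericentriolar material with Cdk5rap2, was at 7.30, 5.25 and 5.33 FPKM in WT cells and at 6.24, 7.13 and 8.28 FPKM in the FHL3-KO-labelled libraries. The groups overlapped, and the log2 change of 0.24 was not called (adjusted p = 0.223). It was 0.24 also after both trends were removed, but 0.48 with the length trend alone removed, where Pcnt was called higher (0.0218). Ninl, a ninein-like anchor of microtubules, was at 1.53, 1.59 and 1.45 FPKM and at 1.39, 1.13 and 0.95 FPKM, without overlap and without a call (log2 change -0.23, adjusted p = 0.17).

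Centriolar satellites are granules that ferry proteins to the centrosome. Both tested genes assigned to this class fell. Cep20, listed beforehand as a satellite partner under its older name Fopnl, is given below with the mother centriole, and it rose. Pcm1, their core scaffold, was at 12.05, 8.46 and 6.78 FPKM in WT cells and at 4.43, 5.41 and 4.93 FPKM in the FHL3-KO-labelled libraries. The groups did not overlap, and the WT libraries were more spread than the others. Its log2 change of -0.74 (adjusted p = 0.017) was -0.36 with both trends removed and was then not called (0.065). Nor was it called without FHL3-KO-labelled replicate 1 (0.0614). Cep131, a satellite protein rich in GC, went from 4.23, 4.98 and 5.52 FPKM to 2.75, 2.21 and 4.10 FPKM. Its log2 change of -0.58 (adjusted p = 0.0388) was -0.86 with both trends removed (0.00381). Cep131 was not called without any 1 of WT replicates 1, 2 or 3 or of replicates 1 and 2 labelled FHL3-KO, at adjusted p values from 0.0502 to 0.11, nor with median-of-ratios scaling (0.0517) or quantile normalization (0.148). The third satellite gene, Cep72, was below 0.4 FPKM in every library and was not tested.

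Of 12 genes of centriole duplication and length control, 5 fell and 1 rose. Cep135, part of the cartwheel that sets centriole symmetry, was at 3.42, 2.39 and 2.50 FPKM in WT cells and at 0.94, 1.13 and 0.98 FPKM in the FHL3-KO-labelled libraries. The groups were well apart (log2 change -0.89, SE 0.14, adjusted p = 0.00267), also with both trends removed (-0.78, 0.00163). Cep57, which helps to hold the pericentriolar material around the centriole, was at 7.75, 6.60 and 5.70 FPKM and at 3.34, 3.62 and 2.57 FPKM. The lowest WT library was above the highest library labelled FHL3-KO, and the change was -0.88 (adjusted p = 0.00337), or -0.65 with both trends removed.

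Cep44 was the gene that rose the most. It is needed to turn newly formed centrioles into mature centrosomes, and was at 7.11, 7.77 and 5.82 FPKM in WT cells and at 10.8, 11.6 and 9.20 FPKM in the FHL3-KO-labelled libraries. No library labelled FHL3-KO was as low as any WT library. The change was 0.55 (SE 0.13, adjusted p = 0.0136). With a GC content of 31.0% its transcript was the poorest in GC of the 67, and with both trends removed its change was 0.85 (0.00167). The call ended with libraries scaled to the same sum (0.45, 0.0507) and without FHL3-KO-labelled replicate 1 (0.0504). The other falls of this class were Cep295, Cep97 and Cep85, at log2 changes of -0.69, -0.52 and -0.36, of which Cep85 alone was called with both trends removed. Cep295 was not called without WT replicate 1 (0.0517) or 2 (0.0546) or FHL3-KO-labelled replicate 3 (0.0631), nor Cep97 without WT replicate 2 (0.0584) or FHL3-KO-labelled replicate 1 (0.0541) or 3 (0.052). Cep85 was in turn not called without WT replicate 1 (0.0752), WT replicate 2 (0.0631) or replicate 1 (0.0848) or 3 (0.0722) labelled FHL3-KO. Cep152 and Cep63, which recruit the kinase Plk4, were at log2 changes of -0.27 and -0.07 and were not called. Cep120, Cep57l1, Cep76 and Cep78 were not called either, at changes from -0.38 to 0.04.

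The mother centriole carries appendages, by which it docks at the membrane. Cep170, a marker of subdistal appendages, was at 32.7, 25.5 and 19.7 FPKM in WT cells and at 13.6, 16.1 and 10.6 FPKM in the FHL3-KO-labelled libraries. The groups did not overlap, and the change was -0.89 (adjusted p = 0.0112), or -0.46 with both trends removed (0.00945). Cep164, the distal appendage protein that recruits the kinase Ttbk2, was at 6.90, 5.80 and 5.60 FPKM and at 3.91, 4.21 and 4.28 FPKM. Its libraries were tight within each group, and its change was -0.46 (adjusted p = 0.0129), or -0.52 with both trends removed.

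Cep83, which docks the other distal appendage proteins, was at 14.7, 12.53 and 10.8 FPKM in WT cells and at 9.03, 10.2 and 8.63 FPKM. Its fall (-0.40, adjusted p = 0.0362) was gone with both trends removed (-0.01, 0.963), and it was not called without WT replicate 1 (0.0969) or 2 (0.102) or without replicate 1 (0.103) or 3 (0.102) labelled FHL3-KO. Cep83os, a non-coding record that shares a bidirectional promoter with Cep83 in the annotation, went with it, at 1.10 ± 0.17 and 0.71 ± 0.16 FPKM and a change of -0.29 that was not called. Cep20, a centriolar protein related to Cep43, was at 31.0, 28.5 and 30.5 FPKM and at 35.4, 36.7 and 34.0 FPKM. It rose by the small amount of 0.23 (adjusted p = 0.0429), and 0.46 with both trends removed. The call ended on leaving out any 1 of the 6 libraries (adjusted p from 0.0566 to 0.168) and with libraries scaled to the same sum (0.321). Cep350, Cep43, Cep19, Cep89, Cep128 and Cep170b were not called. The linker that ties the centrioles of a pair together includes Cep250 and Cep68. Cep250 was at 5.06, 4.28 and 3.86 FPKM and at 2.66, 2.43 and 3.82 FPKM, barely apart and not called (-0.45, adjusted p = 0.0544). Cep68 was at 8.53, 7.36 and 6.97 FPKM and at 6.01, 6.51 and 6.08 FPKM, also apart and not called (-0.26, adjusted p = 0.0823). Both fell with both trends removed (-0.50 and -0.26, 0.0248 and 0.0337).

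At the transition zone, the gate at the base of the cilium, Cep290 changed the most. Mutations of its human counterpart cause Joubert syndrome and retinal degeneration. Cep290 (chromosome 10, 100487558 to 100574840, plus strand, GRCm38) was at 5.52, 3.33 and 3.69 FPKM in WT cells and at 1.16, 1.88 and 0.79 FPKM in the FHL3-KO-labelled libraries. Every WT library was above every other library. The means were 4.18 ± 1.2 and 1.277 ± 0.56 FPKM, at a log2 change of -1.19 (SE 0.22, adjusted p = 0.00515), which was -0.68 with both trends removed (0.00593). Another gene on the opposite strand, 4930430F08Rik, overlaps 881 bases of its exons, at 8.80 and 4.94 FPKM, and whether counting used the strand is not known from the labels.

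Cep162, which tethers transition zone proteins to the axoneme, was at 2.13, 1.56 and 1.36 FPKM in WT cells and at 0.57, 0.84 and 0.65 FPKM. It fell by 0.66 on the log2 scale (adjusted p = 0.011), and by 0.42 with both trends removed. The tectonics are proteins of the transition zone membrane. Tctn1 was at 3.42, 3.75 and 3.23 FPKM and at 2.49, 2.58 and 2.40 FPKM, with a gap between groups wider than the spread within them (-0.36, adjusted p = 0.0291; -0.42 with both trends removed). Its call ended without WT replicate 1 (0.0614) or 2 (0.124), without replicate 1 (0.0768) or 3 (0.0804) labelled FHL3-KO, with the length trend alone removed (0.124) and after quantile normalization (0.192). Tctn3 and Tctn2 also lay lower in all 3 libraries labelled FHL3-KO without a call, at changes of -0.29 and -0.18. The tubulin-modifying factor Cep41 was not called (-0.01).

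Intraflagellar transport moves cargo along the cilium in trains of a B complex, which travels outward, and an A complex, which returns. Of the 11 B-complex genes named Ift, 5 fell and 0 rose. Ift74 (chromosome 4, 94614491 to 94693229, plus strand, GRCm38) had the smallest p of all 67 genes. It was at 17.6, 14.1 and 14.7 FPKM in WT cells and at 5.35, 6.55 and 4.53 FPKM in the FHL3-KO-labelled libraries. Even the lowest WT library was above all of the others. The means were 15.5 ± 1.9 and 5.48 ± 1.0 FPKM, at a log2 change of -1.35 (SE 0.14, adjusted p = 0.000519), which was -1.13 with both trends removed (0.000264). Its adjusted p over all 18 alternatives ran from 0.000238 to 0.00512.

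Ift81 binds Ift74, and together they carry tubulin into the cilium. Ift81 was at 12.3, 8.41 and 8.38 FPKM in WT cells and at 5.52, 4.68 and 4.14 FPKM. The change was -0.87 (adjusted p = 0.00551), or -0.62 with both trends removed (0.00903). Ift80, a peripheral subunit, was at 9.21, 7.65 and 6.63 FPKM and at 3.84, 4.36 and 3.11 FPKM, at a change of -0.89 (adjusted p = 0.00353), or -0.42 with both trends removed (0.00519). For each of these genes the groups were apart, and each remained called without any 1 library.

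The other B-complex genes named Ift were less changed or not called. Ift57 fell from 12.7 ± 0.74 to 9.65 ± 0.67 FPKM (-0.36, adjusted p = 0.0175). It was not called without WT replicate 1 (0.0536) or 2 (0.0652) or without replicate 1 (0.0523) or 3 (0.0561) labelled FHL3-KO. Ift88, the subunit whose loss abolishes cilia in mice, fell from 3.93 ± 0.76 to 2.53 ± 0.11 FPKM (-0.47, adjusted p = 0.0259), and its change was -0.18 with both trends removed (0.216). Ift88 was not called without WT replicate 1 (0.0591) or without replicate 1 (0.0784) or 3 (0.0661) labelled FHL3-KO. Ift20, which also works at the Golgi, was at 27.7 ± 1.6 and 24.6 ± 1.2 FPKM and was not called. Ift22, Ift27, Ift46, Ift52 and Ift172 were not called, at changes from -0.15 to 0.20. Thus Ift74 and Ift81 fell to 0.35 and 0.49 of their WT means, while Ift52 and Ift46 were at 1.11 and 1.06 of theirs.

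None of the 3 A-complex genes named Ift was called. The A-complex genes Ttc21b, Wdr19 and Wdr35, given below with the transport partners, fell, with calls that depended on single libraries. Ift122 was at 12.9, 12.8 and 11.1 FPKM in WT cells and at 9.27, 10.7 and 9.95 FPKM in the FHL3-KO-labelled libraries, apart but short of the threshold (-0.27, adjusted p = 0.0597), and it fell with both trends removed (-0.26, 0.0232). Ift140 was at 4.203, 3.84 and 3.88 FPKM and at 3.32, 3.54 and 3.76 FPKM, apart and not called (-0.13, adjusted p = 0.322), and its sign turned with the length trend removed (0.017). Ift43 had the highest FPKM of the 67 genes in WT, at 35.8, 43.1 and 43.5 FPKM, and was at 46.8, 38.02 and 47.7 FPKM in the other group. Its groups overlapped (0.11, adjusted p = 0.486), and its sign turned with both trends removed (-0.11).

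The BBSome is a coat-like complex that carries membrane proteins out of the cilium, and its subunits are encoded by genes of Bardet-Biedl syndrome. None of the 6 tested subunits named Bbs was called. Bbs1, Bbs2 and Bbs9 were at changes of -0.001, -0.02 and 0.09. Bbs4 was at 4.34, 3.51 and 4.14 FPKM in WT cells and at 3.06, 3.14 and 2.69 FPKM, apart but not called (-0.33, adjusted p = 0.0512), and its change was 0.01 with both trends removed. Bbs5 was at 9.52, 8.63 and 7.97 FPKM and at 10.3, 8.83 and 9.86 FPKM with overlap (0.14, adjusted p = 0.313). Bbs7 was at 1.92, 2.04 and 1.47 FPKM and at 1.89, 3.21 and 2.09 FPKM, also with overlap (0.26, adjusted p = 0.264). Both rose with both trends removed (0.40 and 0.41, adjusted p = 0.0179 and 0.0498). Of the subunits with other names, Bbip1 fell from 23.2 ± 3.1 to 16.6 ± 2.4 FPKM (-0.46, adjusted p = 0.0276). That call ended with both trends removed (-0.16, 0.441). It also ended without WT replicate 1 (0.0665) or 3 (0.0774) or without replicate 1 (0.0937) or 2 (0.0515) labelled FHL3-KO. Ttc8 was at 7.81 ± 0.73 and 5.93 ± 1.0 FPKM, apart but not called (-0.35, adjusted p = 0.0716).

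Both chaperonin-like genes named Bbs, whose products help to assemble the BBSome, fell. Bbs12 was at 3.62, 3.30 and 3.17 FPKM in WT cells and at 1.51, 1.64 and 1.34 FPKM in the FHL3-KO-labelled libraries. The libraries were tight and far apart by group (-0.80, SE 0.11, adjusted p = 0.00163), also with both trends removed (-0.63, 0.00173). Bbs10 was at 2.47, 2.52 and 1.54 FPKM and at 0.71, 0.75 and 1.21 FPKM. Its WT replicate 3 came near to FHL3-KO-labelled replicate 3, and its change was -0.75 (adjusted p = 0.0136), or -0.69 with both trends removed (0.0169). The Bbs10 call ended without WT replicate 2 (0.0577) and without FHL3-KO-labelled replicate 1 (0.0504). The third chaperonin-like gene, Mkks, was at 8.40 ± 1.2 and 8.68 ± 0.27 FPKM and was not called (adjusted p = 0.741).

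**Figure D4:**
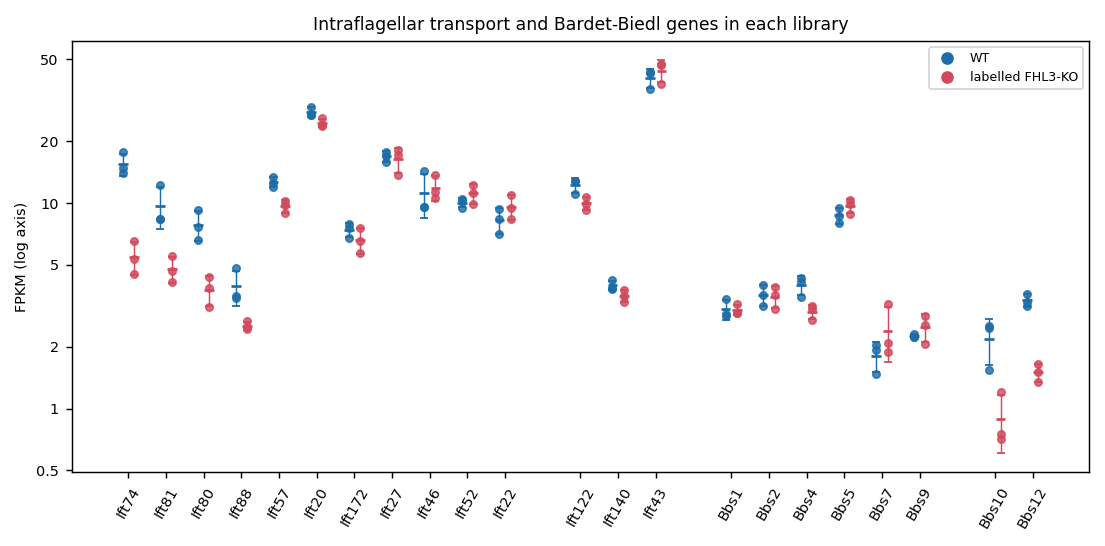
FPKM (log axis) of the intraflagellar transport B genes, the A genes, the BBSome genes and the chaperonin-like genes, from left to right, in each library; lines are group means and error bars the SD of 3 libraries. The groups are apart for Ift74, Ift81, Ift80 and Bbs12 and overlap for Ift46, Ift52, Ift43, Bbs1 and Bbs2.

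Other centrosomal genes fell as well. Cep70, which binds gamma-tubulin, was at 2.77, 2.69 and 1.73 FPKM in WT cells and at 0.59, 1.02 and 1.13 FPKM, without overlap (-0.82, adjusted p = 0.0098; -0.50 with both trends removed, 0.0483). With the GC trend alone removed it was not called (-0.46, 0.068). Cep95 fell from 4.37, 3.51 and 2.78 FPKM to 1.83, 2.60 and 1.67 FPKM (-0.58, adjusted p = 0.0309). Cep85l fell from 2.76, 1.63 and 1.49 FPKM to 0.84, 1.25 and 0.74 FPKM (-0.59, adjusted p = 0.0414). The groups of both were apart, but Cep95 and Cep85l were not called without WT replicate 1 or 2 or without replicate 1 or 3 labelled FHL3-KO, with adjusted p values from 0.0726 to 0.114, and Cep85l was not called with both trends removed (-0.19, 0.282). Cep55, which recruits the machinery that severs daughter cells and is a gene of dividing cells, was at 8.57, 5.55 and 7.35 FPKM in WT cells and at 5.10, 5.83 and 4.02 FPKM. Its groups overlapped and it was not called (-0.44, adjusted p = 0.0762).

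The 7 genes left untested with the filter at 1 FPKM were low throughout. Nphp4, a transition zone gene, was at 0.42, 0.48 and 0.48 FPKM in WT cells, and its value is 0 in all 3 libraries labelled FHL3-KO. An exact 0 in a table without counts can be a failed estimate, so no fold is given. With no filter Nphp4 was called lower (limma adjusted p = 0.00116), a call that rests on these 0 values. Cep112 was at 1.03, 0.73 and 1.004 FPKM in WT cells and at 0.44, 0.37 and 0.43 FPKM, apart, and just under the limit for testing. It was called lower in each alternative in which it was tested (limma adjusted p = 0.0312 and 0.0474). Cep126 was at 0.68 ± 0.35 and 0.20 ± 0.23 FPKM with overlap, Cep295nl at 0.46 ± 0.092 and 0.49 ± 0.25 FPKM, and Cep72 at 0.25 ± 0.10 and 0.28 ± 0.088 FPKM. Cep112it stayed below 0.004 FPKM, and Cep112os1 was listed at 0 in every library.

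Partner genes outside the name pattern were read from 12 lists of 124 records by role. Of the 112 tested, 36 (32.1%) fell and 11 rose, at a median log2 change of -0.13, where 21.2% of all tested genes fell and 19.7% rose. With both trends removed 34 fell and 10 rose, at a background of 22.6% lower and 19.1% higher. By list, as deposited, the share that fell ran from 0% in cilium disassembly to 50% in ciliary motors. It was 25% in the pericentriolar list and 20% in the transcription factor list, near the share of all genes. The lists are short, so these shares are descriptions.

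The motor that drives intraflagellar transport outward, kinesin-2, was lower in all of its subunits tested. Kif3a, a motor subunit, fell from 19.6 ± 2.5 to 10.03 ± 1.8 FPKM (-0.90, adjusted p = 0.00274), and its change with both trends removed was -0.98. Kifap3, the adaptor subunit, fell from 36.6 ± 4.5 to 22.6 ± 3.4 FPKM (-0.67, adjusted p = 0.00616). Kif3b fell from 9.84 ± 1.1 to 7.38 ± 0.64 FPKM (-0.37, adjusted p = 0.0328). The Kif3b call ended without WT replicate 1 (0.0918) or 2 (0.125) and without replicate 1 (0.11) or 3 (0.0664) labelled FHL3-KO. Of the dynein-2 genes of the return motor, Dync2i1 fell from 6.04 ± 0.87 to 3.81 ± 0.70 FPKM, while Dync2i2 rose from 11.6 ± 0.56 to 17.7 ± 1.2 FPKM (0.56, or 0.30 with both trends removed). The Dync2i1 call ended without WT replicate 1 (0.0595) or 2 (0.0553) and without replicate 1 (0.0678) or 3 (0.0611) labelled FHL3-KO. In all, 4 of 8 motor genes fell and 1 rose. Of 10 transport partners 3 fell and 0 rose, namely Ttc21b, Wdr19 and Wdr35, at changes of -0.50, -0.46 and -0.39. Each of these was lost on leaving out WT replicate 1 or 2 or FHL3-KO-labelled replicate 1 (adjusted p from 0.0581 to 0.123), and Wdr19 and Wdr35 also without FHL3-KO-labelled replicate 3 (0.0785 and 0.0974). With both trends removed Ttc21b was at -0.05 (0.756), Wdr19 at -0.28 and Wdr35 at -0.28.

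Of 13 partners in centriole duplication 5 fell and 0 rose. Plk4, the kinase that starts centriole duplication, fell from 7.41 ± 1.0 to 4.08 ± 0.59 FPKM (-0.73), Sass6, the cartwheel protein, from 2.47 ± 0.35 to 0.86 ± 0.25 FPKM (-0.90), and Cenpj, a partner of Cep135 in centriole growth, from 3.46 ± 0.46 to 1.35 ± 0.36 FPKM (-0.93). Each was still lower with both trends removed, at -0.40, -0.57 and -0.81. Of 12 genes of the pericentriolar material and gamma-tubulin complexes 3 fell and 1 rose. Nedd1, which targets gamma-tubulin to the centrosome, fell from 12.6 ± 0.98 to 6.63 ± 0.89 FPKM (-0.84). Haus6, a subunit of the augmin complex that branches microtubules, fell from 3.65 ± 0.50 to 1.87 ± 0.37 FPKM (-0.70, or -0.35 with both trends removed). Tubgcp5, a gamma-tubulin complex subunit, fell from 4.01 ± 0.73 to 2.50 ± 0.27 FPKM (-0.51), and was not called with both trends removed (-0.12, adjusted p = 0.404). The Tubgcp5 call also ended without WT replicate 1 (0.0719) or 2 (0.0907) and without replicate 1 (0.0517) or 3 (0.0733) labelled FHL3-KO. With quantile normalization it ended as well (0.0577). By contrast gamma-tubulin itself, Tubg1, was at 26.9 ± 1.7 and 28.1 ± 1.9 FPKM and was not called (adjusted p = 0.609). Of 6 satellite partners Ccdc66 and Ofd1 fell (-0.86 and -0.52, or -0.54 and -0.36 with both trends removed) and 0 rose. Cep20, which rose, was on this list as Fopnl but is counted with the genes chosen by name. Ofd1 was not called with the GC trend alone removed (adjusted p = 0.0506). Tbc1d31, at 7.61 ± 0.73 and 6.51 ± 0.29 FPKM, was not called. Of 9 appendage and linker genes 4 fell and 0 rose: Ankrd26, Nin, Ttbk2 and Sclt1, at changes of -1.03, -0.73, -0.73 and -0.72, the last 2 not called with both trends removed (-0.33 and -0.41, adjusted p = 0.0575 and 0.0553).

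Genes of the microtubule-organising centre at the nuclear envelope of myotubes moved both ways, with 3 of 9 lower and 1 higher. Kif5b, the kinesin-1 motor, fell from 59.6 ± 13 to 29.95 ± 6.2 FPKM (-0.97), and its light chain Klc1 rose from 121 ± 1.9 to 182.2 ± 16 FPKM (0.58). With both trends removed these changes were -0.57 and 0.38. Camsap2, which caps microtubule minus ends away from the centrosome, fell from 9.82 ± 1.2 to 5.48 ± 1.3 FPKM (-0.75). The remaining fall was that of Syne2, from 2.56 ± 0.90 to 1.38 ± 0.22 FPKM (-0.56, adjusted p = 0.0487; -0.39 with both trends removed, 0.0322). The Syne2 call ended on leaving out any 1 library but WT replicate 3 (adjusted p from 0.0500056 to 0.128). Syne1 and Akap6, the envelope anchors of Pcm1, Pcnt and Akap9, were not called, at 6.39 ± 1.2 and 5.61 ± 1.1 FPKM and at 6.92 ± 1.8 and 6.21 ± 1.2 FPKM.

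At the transition zone 4 of 14 partners fell and 3 rose. Rpgrip1l, Iqcb1 and Cc2d2a fell, at changes of -0.92, -0.85 and -0.48, as did Invs at -0.43. With both trends removed Rpgrip1l was at -0.44, Iqcb1 at -0.52, Cc2d2a at -0.44 and Invs at -0.36. The Invs call ended without WT replicate 1 or 2 or FHL3-KO-labelled replicate 1 or 3 (adjusted p from 0.0824 to 0.129). The calls of the rises, in Mks1, B9d2 and Tmem107, ended with both trends removed (adjusted p = 0.0689, 0.289 and 0.238). Tmem107 was also not called without any 1 library (0.0533 to 0.127), nor B9d2 without any 1 but FHL3-KO-labelled replicate 2 (0.0513 to 0.131). Mks1 was not called without WT replicate 2 (0.0559). With libraries scaled to the same sum the calls of B9d2 and Tmem107 ended (0.129 and 0.194). Of 11 BBSome partners and ciliary GTPases 4 fell and 1 rose. Lztfl1, which regulates BBSome entry, fell from 7.07 ± 0.61 to 2.52 ± 0.20 FPKM (-1.20), and Arl13b, a GTPase of the ciliary membrane, from 4.48 ± 0.57 to 2.49 ± 0.29 FPKM (-0.65). With both trends removed they were at -0.69 and -0.41. Rab8a, which brings vesicles to the cilium, rose from 8.56 ± 0.54 to 12.4 ± 0.56 FPKM (0.49).

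Hedgehog signals are read through the cilium, and 3 of 8 tested genes of that pathway fell and 1 rose. The co-receptor Cdon fell from 51.1 ± 6.5 to 30.2 ± 3.6 FPKM (-0.74) and the factor Gli3 from 3.15 ± 0.57 to 1.71 ± 0.31 FPKM (-0.62), while the co-receptor Gas1 rose from 9.26 ± 1.0 to 14.8 ± 1.1 FPKM (0.63, or 0.37 with both trends removed). The target gene Ptch1 was at 1.26 ± 0.37 and 1.21 ± 0.26 FPKM and the target Gli1 at 0.23 ± 0.026 and 0.27 ± 0.040 FPKM, neither called nor, for Gli1, tested. Of 7 genes of cilium disassembly 0 fell and 2 rose, the mitotic kinases Plk1 (0.51, or 0.28 with both trends removed) and Aurka (0.36), while Kif24 was at 2.75 ± 0.36 and 3.48 ± 0.67 FPKM without a call. The Aurka call ended with both trends removed (0.18, adjusted p = 0.0998), after scaling to equal sums (0.0723) and without WT replicate 2 (0.0586). Of 5 ciliogenesis transcription factors tested, Rfx5 fell (-0.65) and Rfx1 rose (0.41), while Rfx7 was at 3.35 ± 0.56 and 2.40 ± 0.38 FPKM without a call. The Rfx1 call ended with both trends removed (0.24, adjusted p = 0.0928), without WT replicate 2 (0.06), after scaling to equal sums (0.085) and without FHL3-KO-labelled replicate 1 (0.0564).

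**Figure D5:**
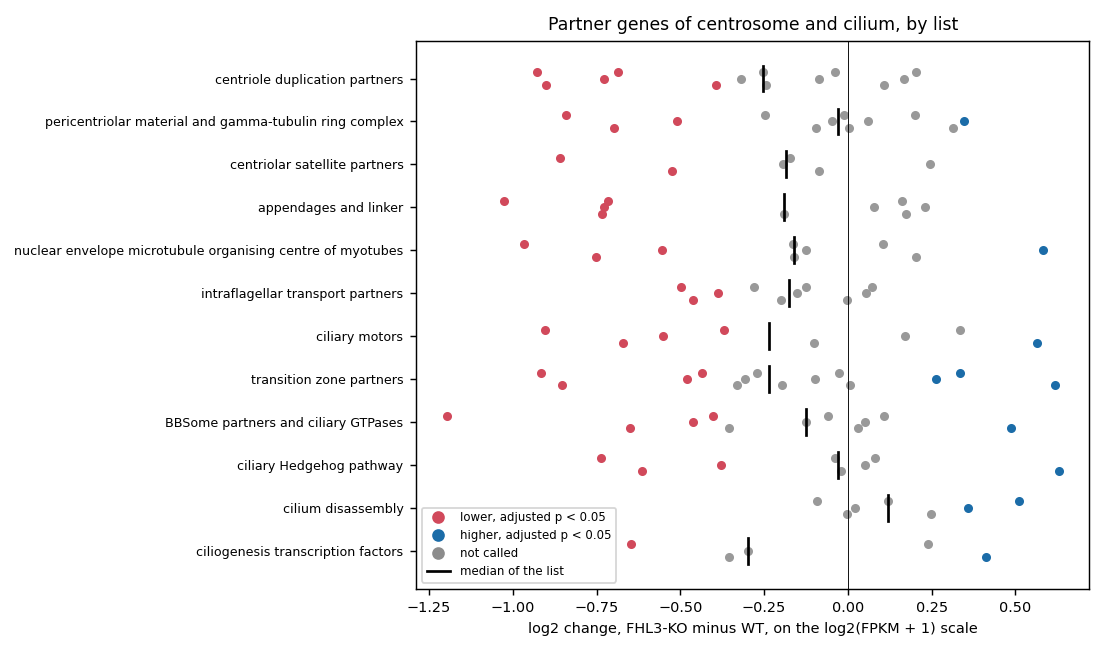
Log2 change (FHL3-KO minus WT, log2(FPKM + 1) scale) of the tested partner genes in 12 lists; red points fell, blue points rose, grey points were not called, and black bars are list medians. As plotted, the medians lie below 0 in every list but cilium disassembly, where it is 0.12; with both trends removed they turn to 0.18 for the transcription factors and 0.019 for the nuclear envelope list.

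Markers of other cell states moved with the groups, and their part in these changes was not tested. In bulk RNA, fewer cells of a type and less RNA per cell cannot be told apart. All 8 myotube markers rose. Of 10 genes of cycling cells 3 rose (Ccnb1, Aurka and Plk1) and 3 fell (Mki67, Top2a and Bub1), and their summed level was 233.4 to 246.8 FPKM in WT cells and 237.5 to 249 FPKM in the FHL3-KO-labelled libraries. Of 3 tested myoblast markers Myf5 fell, and Pax3 was listed at 0 throughout. Of 5 tested fibroblast markers 3 fell and 1 rose, with sums of 435.1 to 497.7 FPKM and 147.5 to 165.9 FPKM. The 9 genes of multiciliated cells, which bear motile cilia, summed to 3.19 to 3.75 FPKM and 0.82 to 1.48 FPKM. Their defining factors Foxj1 and Mcidas were at 0.053 and 0.059 FPKM and at 0, and the dynein gene Dnai1 fell from 1.87 ± 0.34 to 0.18 ± 0.19 FPKM.

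Promoters of ciliary genes often hold the X-box, the DNA site of RFX factors, whose arms read GTTGCC or GTTACC. RefSeq promoters (GRCm38.p6), short stretches around each gene's start, matched 60 of the 74 genes by symbol. On either strand, GTTGCC was in 20 of these 60 (33.3%), in 12.51% of all 32851 promoters and in 1330 of 9058 tested genes (14.7%). Among genes that fell it was in 6 of 22 (27.3%), and among the other tested genes of the 74 in 12 of 34 (35.3%). GTTACC was in 9 of 60, in 7.21% of all promoters and in 671 of 9058 tested genes (7.41%). Among genes that fell it was in 4 of 22 (18.2%), and among the other tested genes in 2 of 34 (5.88%), the reverse order of the other arm. Neither split was tested. The full X-box consensus was in 0 of 60, in 0.07% of all promoters and in 5 of 9058 tested genes. A looser X-box with free central bases, chosen after the promoters were seen, was in 3 of 60 (Bbs7, Cep19 and Tctn1). It was in 0.45% of all promoters and in 59 of 9058 tested genes (0.65%), and it contains the arms. Both forms fix the number of bases between the arms, and sites with other spacings were not searched. A match of letters is a description and not a measured site. Windows are shown for genes of differing outcome, with matches to GTTGCC or to the looser X-box in capitals. GTTACC is not capitalised. In the Ift57 window it follows the last GTTGCC on the other strand, as ggtaac, with only a t between them. Bbs7 was not called, and Ift57 and Cep57 fell. They lie at chr3:36613477-36613530 (minus strand), chr16:49699187-49699259 (plus strand) and chr9:13827186-13827231 (minus strand).
Bbs7: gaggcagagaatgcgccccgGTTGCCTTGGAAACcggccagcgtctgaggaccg
Ift57: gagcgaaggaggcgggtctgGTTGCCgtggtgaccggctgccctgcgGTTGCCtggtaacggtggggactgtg
Cep57: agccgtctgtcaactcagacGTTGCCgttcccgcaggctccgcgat
The same letters thus occur in promoters of genes that fell and of a gene that was not called.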

How the data were processed

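RNA-seq values of 6 libraries (3 WT, 3 labelled FHL3-KO) came from 1 deposited table. The submitters' processing notes list the build mm10 and, without roles, DESeq2 1.28.1, featureCounts 2.0.1, HISAT2 2.2.1 and Trim Galore 0.6.6. Annotation and strand setting: not given in the sources used here. Per the file headers no unit is named. The deposited values were read as FPKM because they are decimals whose column sums differ, so the depth is unknown and intervals from counts could not be computed. No read counts were recovered, and the planned count tests were not run.

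Of 55420 rows, 7 rows with 3 repeated IDs were left out. GENCODE M21 (GRCm38) held 94% of the IDs, and 39 more, Tctn2 among them, were matched by name. Exon length is the union of a gene's exons, and GC content that of its longest transcript. Genes whose mean reached 1 FPKM in either group were fitted as log2(FPKM + 1) with limma 3.58.1 in R 4.3.3 (mean-variance trend, two-sided, no covariates, Benjamini-Hochberg over 12528 genes, threshold 0.05). Trends were removed per library with splines of 5 degrees of freedom. The fits were tested on simulated data.

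The genes and lists were chosen with earlier results of these data known. Values in every library are given for the 5 genes named singly, the 3 genes of each role with the smallest p and those changed by at least 1 on the log2 scale, and list genes by the 3 smallest p. Other genes in the text were chosen after their values were seen. A few genes counted among the 67 tested are not reported here by name.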

Additional observations from a re-analysis of the deposited data

How the results depend on the processing

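The sign of the median change was negative in every alternative, while counts of calls moved. Against 26 genes lower of 67, the count was 13 of 73 without a filter, 11 of 36 with a filter at 5 FPKM and 8 at a threshold of 0.01, with the cause in part the genes tested and the adjustment. Leaving out a library gave 12 to 29 lower and 0 to 1 higher, medians from -0.32 to -0.24 and 3272 to 5273 calls over all genes. Across these refits 13.3% to 22.7% of all genes fell. A threshold of 0.01 gave 2695 calls over all genes and 0 higher. Against 2 genes higher, the count was 1 with quantile normalization, 0 with scaling to the same sum and 4 with length and GC trends removed. The median was -0.40 with a pseudocount of 0.1, -0.18 with the filter at 5 FPKM, -0.17 with quantile normalization, -0.37 with scaling to the same sum and -0.21 with the length trend removed. Scaling to the same sum moved the median of all genes to -0.10 and the share of rises among calls from 48.2% to 36.3%. Where no construction shows it, the cause was not tested.

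Whether the replicate numbers pair the libraries is not known, since the labels name no shared batch. Deviations of same-numbered libraries correlated at -0.13, -0.06 and 0.32, and those of differently numbered ones at -0.38 to 0.37. With 3 libraries in each group these correlations cannot settle the question. With the replicate number as a block, 4759 genes were called, and 23 of the 67 fell and 1 rose. With the block and both trends removed, 24 fell and 4 rose. With the length of the longest transcript in place of exon length, chosen after seeing the data, 28 fell and 3 rose. Over all genes 19.9%, 20.9% and 22.9% fell in these fits, in the order given. Leaving out the tested ones among 10 genes whose exons overlap another expressed gene, also chosen after seeing the data, left 20 of 58 lower and 2 higher.

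Of the 67 genes, 16 changed sign in at least 1 of 18 alternatives. None of the 16 was called as deposited, and none was called with the other sign. Bbs4 was called lower with libraries scaled to the same sum (-0.42, adjusted p = 0.0424). The largest values of the other sign were 0.36 for Cep63 with both trends removed (-0.07 as deposited; adjusted p = 0.0535), 0.24 for Cep76 and 0.21 for Cep43 with the GC trend removed, and 0.18 for Bbs1 and 0.16 for Bbs2 and Cep41 with quantile normalization. Cep57l1 was at 0.07 with both trends removed. Sign changes of genes chosen by the rule for named genes, partners included, were as follows. Bbs4 was at 0.013 with the GC trend removed and 0.015 with both trends removed, with or without the block. Ift140 was at 0.045 with quantile normalization and 0.017 with the length trend removed. Ift43 was at -0.010, -0.066 and -0.11 with the length, GC and both trends removed, and at -0.084 by longest transcript. Tbc1d31 was at 0.034 with the GC trend removed, 0.054 with both trends removed and 0.010 by longest transcript. Rfx7 was at 0.021 with both trends removed and 0.013 by longest transcript. The cause was not tested. The planned edgeR and DESeq2 fits were not run, since the values are not counts. Depth is unknown, so what it limits cannot be given.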
